A study of Mus musculus with 2 samples.

Results

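A set of 7 genes that are often used to describe neutrophils that restrain T cells was followed in single blood cells of young and old mice, namely Cd274, Nos2, Arg2, Arg1, Cd84, Lgals3 and Cd101. They were chosen by symbol, and all 7 were present among the 32285 genes of the deposited matrices. Blood was taken from mice labelled male, aged 2 months (young) or 24 months (old), and live cells positive for CD45, CD11b and Ly6G were sorted and sequenced singly, as 1 library per age. No treatment, transgene or strain is given in the labels, nor how many animals were used. The series was made to describe senescent neutrophils in aging. A single library stands for each age, which leaves no test between ages, so no p-value is given and every value describes these libraries. Intervals in parentheses are 95% intervals of the counts (exact Poisson for levels, exact conditional binomial for ratios) and speak to counting error alone.

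Neutrophils can dampen T cell responses through contact and through metabolism. Cd274 encodes PD-L1, a surface ligand that is induced by interferons and engages the inhibitory receptor PD-1 on T cells. The arginases split L-arginine into ornithine and urea, Arg1 in the cytosol and Arg2 in mitochondria, and the inducible nitric oxide synthase encoded by Nos2 uses the same amino acid to make nitric oxide. Lgals3 encodes galectin-3, a lectin that binds sugars on glycoproteins, T cell surface proteins among them. Cd84 is a self-binding receptor of the SLAM family that has been used as a surface marker of suppressive myeloid cells. Cd101 encodes an immunoglobulin-superfamily glycoprotein that appears on mouse neutrophils late in maturation.

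In the GENCODE annotation of GRCm38 (mm10) all 7 genes are protein-coding. Cd274 lies on the plus strand at chr19:29367455-29388095, Cd84 on the plus strand at chr1:171839697-171890718, and Lgals3 on the plus strand at chr14:47367751-47386160. Nos2 lies on the plus strand at chr11:78920787-78960254 and Arg2 on the plus strand at chr12:79130777-79156301. Arg1 lies on the minus strand at chr10:24915221-24927484 and Cd101 on the minus strand at chr3:100993529-101029556. Cd274 shares 11055 bases with the antisense gene AC119228.1, which stood at 1.24 CPM (a gene's UMIs, or unique molecular identifiers, as counts scaled to a common library total) in young and 0.321 CPM in old neutrophil-like cells. Arg2 shares 285 bases with Vti1b, at 73.8 and 72.3 CPM, and 997 bases with the antisense Gm48780, at 0.339 and 0.174 CPM. How strand was used in counting is not stated, so reads in these overlaps cannot be told apart.

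RefSeq promoters (GRCm38.p6, 250 bases before to 50 after the start) were found for 4 of the 7 genes, Cd274, Cd84, Lgals3 and Cd101. Those of Cd274, the gene that followed interferon-stimulated genes, and of Cd101 and Lgals3, whose levels ran in opposite directions with granule gene content, are shown for reference. The RefSeq start of Lgals3 lies inside its GENCODE span. The windows are chr19:29367188-29367487 on the plus strand, chr3:101029504-101029803 on the minus strand and chr14:47373610-47373909 on the plus strand. Capitals mark the only motif match found, and all sequences are written 5′ to 3′ on the gene's strand.
Cd274 promoter: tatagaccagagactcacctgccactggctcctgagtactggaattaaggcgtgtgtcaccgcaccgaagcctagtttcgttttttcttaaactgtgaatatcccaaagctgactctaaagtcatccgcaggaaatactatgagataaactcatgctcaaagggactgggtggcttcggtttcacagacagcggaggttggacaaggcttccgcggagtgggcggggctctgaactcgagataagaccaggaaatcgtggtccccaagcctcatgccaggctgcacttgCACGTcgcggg
Cd101 promoter: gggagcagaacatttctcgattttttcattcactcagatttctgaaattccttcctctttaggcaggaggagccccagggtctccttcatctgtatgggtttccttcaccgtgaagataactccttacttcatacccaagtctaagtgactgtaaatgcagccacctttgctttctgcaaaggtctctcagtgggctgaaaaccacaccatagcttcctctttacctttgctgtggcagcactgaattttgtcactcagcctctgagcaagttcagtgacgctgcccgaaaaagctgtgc
Lgals3 promoter: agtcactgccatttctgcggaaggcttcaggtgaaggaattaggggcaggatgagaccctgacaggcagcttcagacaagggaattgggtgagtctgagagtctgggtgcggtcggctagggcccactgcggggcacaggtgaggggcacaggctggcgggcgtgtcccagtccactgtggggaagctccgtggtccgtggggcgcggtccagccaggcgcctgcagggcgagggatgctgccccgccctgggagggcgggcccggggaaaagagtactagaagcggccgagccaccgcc
Both strands were searched for GAAA, NN and again GAAA in 1 run (the core of an interferon-stimulated response element, N being any base), TTCNNNGAA (the site shape bound by STAT dimers) and ACGTG (the core of a hypoxia response element). Cd274 held 1 ACGTG match, on its minus strand, with the first matched base at position 40 after the start. No other match lay in the 4 windows. Of 32851 mouse promoters of the same length, 3.44% held the first motif, 8.30% the second and 19.6% the third.

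The young library held 13599 barcodes with 69599479 UMIs and the old library 14334 barcodes with 128826996, and 53 barcodes occurred in both. After filtering, 9836 of 12921 young cells (76.1%) and 8503 of 13517 old cells (62.9%) were neutrophil-like, with medians of 4076 and 7518 UMIs per cell. Xist, which male cells normally lack, stood at 160.4 CPM (young) and 210.1 CPM (old), against the male label, while the Y-linked Ddx3y stood at 19.1 and 7.51 CPM and Uty at 0.201 and 0.0233 CPM. The Y-linked Eif2s3y had 0 UMIs in both libraries. Both libraries thus hold Xist against the label, and of these Y-linked genes only Ddx3y had more than a trace. The libraries differ in Ddx3y as well as in age, so the sex of the animals cannot be told apart from age in the comparisons below. Young and old neutrophil-like cells fell largely into different clusters: 5387, 2746 and 1400 young against 870, 227 and 233 old cells lay in clusters 0, 2 and 5, whereas 78 and 109 young against 4654 and 2143 old cells lay in clusters 1 and 3. Neutrophil RNA in other classes was gauged by S100a8, a neutrophil gene. Its UMIs per B cell-like cell came to 20.2% (young) and 17.4% (old) of the neutrophil-like level. The gauge differed by gene. Young and old values were 22.1% and 17.4% for S100a9, 21.3% and 20.1% for Retnlg, 25.3% and 28.9% for Csf3r, and 3.84% and 16.3% for Ltf. The gauge does not tell free RNA from doublets (2 cells under 1 barcode), and no doublet caller was run. In young B cell-like cells Arg2 UMIs were bunched, at 0.595 per cell with 20.6% of cells positive and up to 13 in a cell.

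Across the named cell classes, Arg2 and Cd101 were highest in neutrophil-like cells, Cd274 in non-classical monocyte-like cells, Lgals3 in classical monocyte-like and progenitor-like cells, and Arg1 was close to absent. Arg2 stood at 588 CPM (581 to 595.5) in young and 406 CPM (401.5 to 411) in old neutrophil-like cells. These cells held 85.4% of all Arg2 UMIs of the young library. In B cell-like cells Arg2 UMIs per cell came to 22.5% (young) and 27.8% (old) of the neutrophil-like level. Beside this stood 20.2% and 17.4% for S100a8 and 25.3% and 28.9% for Csf3r. The part of free RNA or doublets in these levels was not tested. Cd101 stood at 508 CPM (501 to 515) in young and 123 CPM (120.5 to 125.5) in old neutrophil-like cells, and in B cell-like cells came to 23.2% and 30.3% of these levels per cell. In the other named classes Arg2 lay between 37.1 (T cell-like) and 172 CPM (platelet-like) in the young library and between 22.0 (dendritic cell-like) and 118 CPM (non-classical monocyte-like) in the old. Cd101 lay between 41.4 (classical monocyte-like) and 167 CPM (platelet-like) in the young library, and between 0 (26 NK cell-like cells) and 47.1 CPM (platelet-like) in the old.

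Cd274, the PD-L1 gene, had its highest level outside neutrophils. Non-classical monocyte-like cells, the patrolling monocytes of blood, stood at 96.4 CPM (88.0 to 105) young and 97.2 CPM (89.2 to 106) old, an old over young ratio of 1.01 (0.890 to 1.14). Neutrophil-like cells stood at 53.8 CPM (51.7 to 56.1) young and 14.96 CPM (14.1 to 15.9) old. Per cell, monocyte-like cells carried 1.05 and 1.08 Cd274 UMIs, and neutrophil-like cells 0.242 and 0.132. B cell-like cells stood at 43.8 CPM (36.7 to 51.8) young and 65.2 CPM (55.9 to 75.7) old. Per cell this was 135% and 545% of the neutrophil-like level, above the S100a8 gauge. Neutrophil-like cells, being the most numerous, still held 68.7% of Cd274 UMIs in the young library, with 2379 of 3461. T cell-like cells stood at 33.9 and 29.8 CPM, NK cell-like cells at 35.1 and 46.3 CPM, platelet-like cells at 41.3 and 27.8 CPM and classical monocyte-like cells at 16.5 and 7.502 CPM, young and old. The young and old intervals overlapped in the first 3 of these 4 classes. Dendritic cell-like cells, at 7.57 CPM (1.56 to 22.1) from 25 young cells and 3.57 CPM (1.31 to 7.77) from 105 old cells, were among the lowest classes.

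Lgals3 was a gene of monocyte and progenitor classes as well as of neutrophils. Classical monocyte-like cells stood at 1525 CPM (1476 to 1575) in 163 young cells and 1972 CPM (1953 to 1990) in 1145 old cells, where subclusters differed between the libraries: 155 of the 163 young cells lay in subcluster 601 and 728 of the old cells in cluster 6. The 64 neutrophil progenitor-like cells, all of the old library, stood at 2343 CPM (2275 to 2414). They were divided from the classical monocyte cluster and named by leading genes such as Elane, Prtn3, Ctsg and Mpo. Per cell their S100a8 came to 26.1% of the neutrophil-like level, beside 28.0% in old classical monocyte-like cells. Whether they belong to the neutrophil or the monocyte lineage was not tested. Neutrophil-like cells stood at 301 CPM (296 to 306) young and 957 CPM (950 to 964) old. Dendritic cell-like cells stood at 1034 and 1480 CPM and non-classical monocyte-like cells at 571.5 and 765.5 CPM, young and old, while NK cell-like cells stood at 72.5 and 86.8 CPM. Among old cells the classical monocyte-like class made up 8.47% and held 31.4% of Lgals3 UMIs. Lgals3 was also higher in the old library in B cell-like cells, at 91.4 CPM (81.1 to 103) young and 251 CPM (232 to 270.2) old. Per cell this was 50.3% and 32.7% of the neutrophil-like level. A single B cell-like cell carried up to 58 of the 284 young UMIs and 59 of the 672 old ones, and 21.3% and 58.6% of cells had any. The part of doublets in these levels was not tested.

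Cd84 was spread more widely. It stood at 650.5 CPM (643 to 658) young and 355 CPM (351 to 360) old in neutrophil-like cells, and at 544 CPM (484.5 to 609) and 411 CPM (371 to 454) in platelet-like cells, whose known SLAM receptors include CD84. B cell-like cells stood at 223 CPM (207 to 240.4) young and 154 CPM (139.5 to 170) old. Per cell this was 56.9% and 54.1% of the neutrophil-like level, above the S100a8 gauge in both libraries. The remaining named classes lay between 58.0 (dendritic cell-like) and 246 CPM (NK cell-like) in the young library and between 60.7 and 188 CPM in the old. Platelet-like and neutrophil-like levels were nearest each other in the order of classes: their intervals did not overlap in either library, and the order of the 2 classes differed between ages.

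Nos2 was nearly confined to the old library. Young neutrophil-like cells held 9 UMIs in 9 cells, or 0.204 CPM (0.0931 to 0.387), and old ones 1009 UMIs in 615 cells, or 13.5 CPM (12.7 to 14.4). Of those 615 old cells 395 carried a single Nos2 UMI and the highest carried 11. The share of old neutrophil-like cells with a Nos2 UMI was 7.23%, and 1.17% after each cell was thinned to 1000 UMIs. In old B cell-like cells, which are not known for this enzyme, the share was 2.46% (6 of 244 cells) at a median of 8668 UMIs per cell, and 0.410% after thinning. The old B cell-like level was 5.22 CPM (2.85 to 8.76), and no other named class was above it.

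Arg1, the arginase most often measured in suppressive myeloid cells, was not a neutrophil transcript at this depth. Neutrophil-like cells held 2 young and 7 old Arg1 UMIs, 1 per cell, so no ratio between ages is given. In the young library 12 of 15 Arg1 UMIs lay in NK cell-like (7) and T cell-like (5) cells. In the old library 33 of 47 lay in a single cell of cluster 12. That cluster of 89 young and 411 old cells was left unnamed because genes uncommon in blood led it (Mt1, Ghr, Hmga2 and Angpt1).

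**Figure D1:**
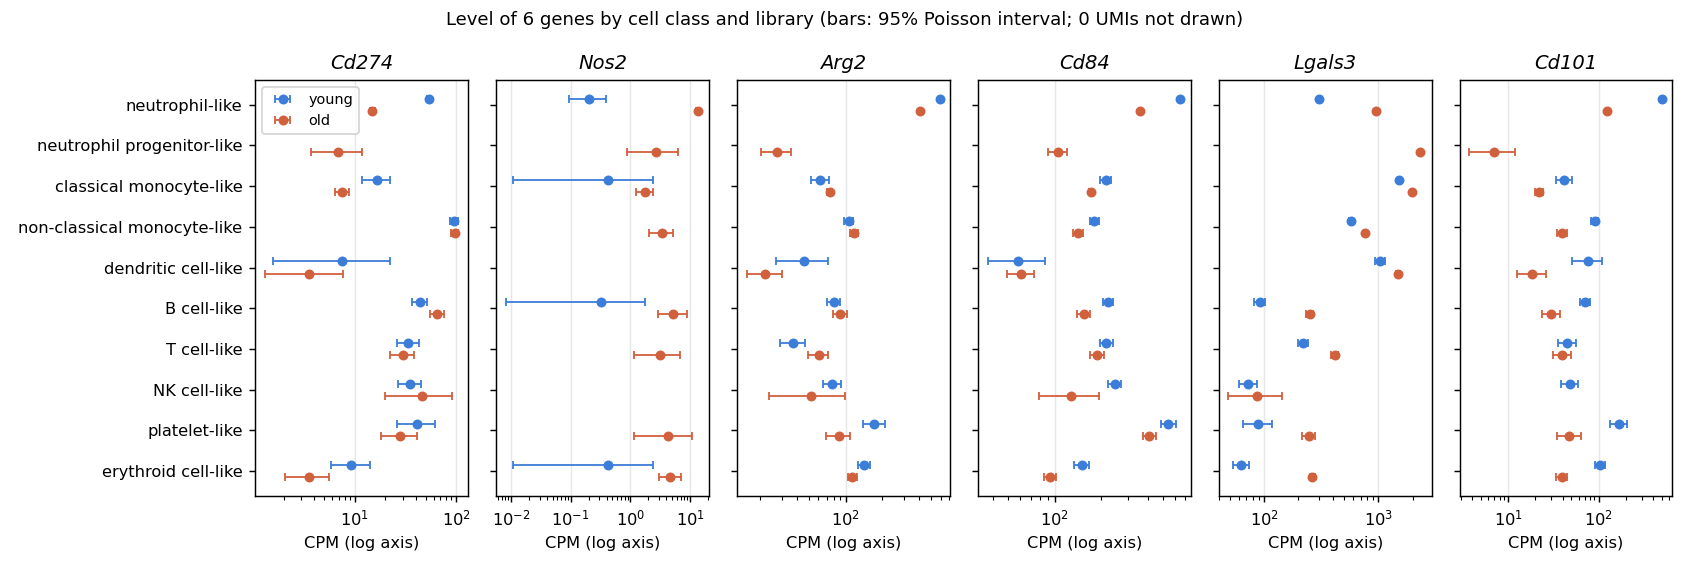
Level of 6 genes in each cell class (rows) of the young and old library, as CPM on a log axis, with 95% Poisson intervals as bars and classes at 0 UMIs not drawn. Cd274 is highest in non-classical monocyte-like cells (96.4 and 97.2 CPM), Arg2 and Cd101 in neutrophil-like cells, and Nos2 appears almost only among old cells.

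Neutrophil maturity was read from a granule score, the percent of a cell's UMIs in 10 genes of secondary granules and their precursors (Ltf, Camp, Ngp and others), which blood neutrophils switch off as they mature. None of the 7 genes is in the score. Cells were split at 0.3, 1 and 3%, and such ranges are cuts of a continuous score, not cell types. Within 25% of the lowest limit lay 67 young cells (0.681%) and 1310 old cells (15.4%). Old cells filled the ranges with 4118, 2264, 991 and 1130 cells, whereas young cells numbered 9680, 78, 28 and 50.

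With rising granule score, Cd101, Arg2, Cd84 and Cd274 were lower and Lgals3 was higher, in both libraries. Cd101 stood at 257.5, 116, 50.1 and 15.4 CPM in the 4 ranges of old cells, and at 521, 255, 73.0 and 22.1 CPM in those of young cells. The highest range was thus 16.8-fold lower (14.9 to 18.9) than the lowest among old and 23.6-fold lower (13.8 to 44.4) among young cells. Cd101 was the steepest of the measured members in the old library.

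The mitochondrial arginase followed the same order. Arg2 stood at 645, 472, 292 and 123 CPM in old cells and at 600.3, 399, 257 and 81.4 CPM in young cells, 5.24-fold lower (5.01 to 5.47) and 7.37-fold lower (5.56 to 10.004) in the highest range. Cd84 stood at 538.5, 399, 275 and 141 CPM in old cells, 3.82-fold lower (3.66 to 3.98) in the highest range. In young cells Cd84 stood at 658, 613, 507 and 222 CPM, 2.96-fold lower (2.49 to 3.54). Cd274 stood at 34.2, 10.8, 4.52 and 2.80 CPM in old cells, 12.2-fold lower (9.27 to 16.4). Its young highest range held 1 UMI in 50 cells, so the 32.7-fold lower value there has the wide interval of 5.86 to 1291.

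Lgals3 was the only measured member with the opposite slope, at 676, 893, 1180 and 1219 CPM in old and 285, 727, 822 and 787 CPM in young cells. It was 1.80-fold higher (1.77 to 1.84) in the highest than in the lowest old range and 2.76-fold higher (2.51 to 3.03) in the young. Nos2 in old cells was not ordered by the score: it stood at 15, 23.1, 11.7 and 2.70 CPM, highest in the second range. Young cells with a score of 0.3 or more held 0 Nos2 UMIs, for which the upper limit of the interval in the highest range was 6.26 CPM.

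A gene counted as measured where the mean of the groups compared reached 5 CPM, and counted as higher or lower past 1.5-fold of log2(CPM + 1). In the old library 6 of 6 measured members passed, 1 higher and 5 lower, against 55.7% of 6822 genes past it (13.2% higher and 42.6% lower). In the young library 5 of 5 measured members passed, 1 higher and 4 lower, against 64.4% of 7288 genes (17% higher and 47.4% lower). Since most genes passed, these counts alone say little about the 7 genes. The members' median log2 ratio was -2.25 (old) and -2.87 (young), beside -0.42 and -0.51 over all genes measured. Depth moved with the score, from a median of 5204 to 16143 UMIs per old cell and from 4058.5 to 11787.5 per young cell, and its part in the ratios was not tested. With ranges set by rank, the highest 25% of a library's cells against the lowest 25%, 0 of 5 young members passed 1.5-fold, and 90% of young cells scored below 0.0790%. The share of all genes past 1.5-fold by rank is not given, and the 64.4% above belongs to the fixed ranges, so this count has no background beside it.

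**Figure D2:**
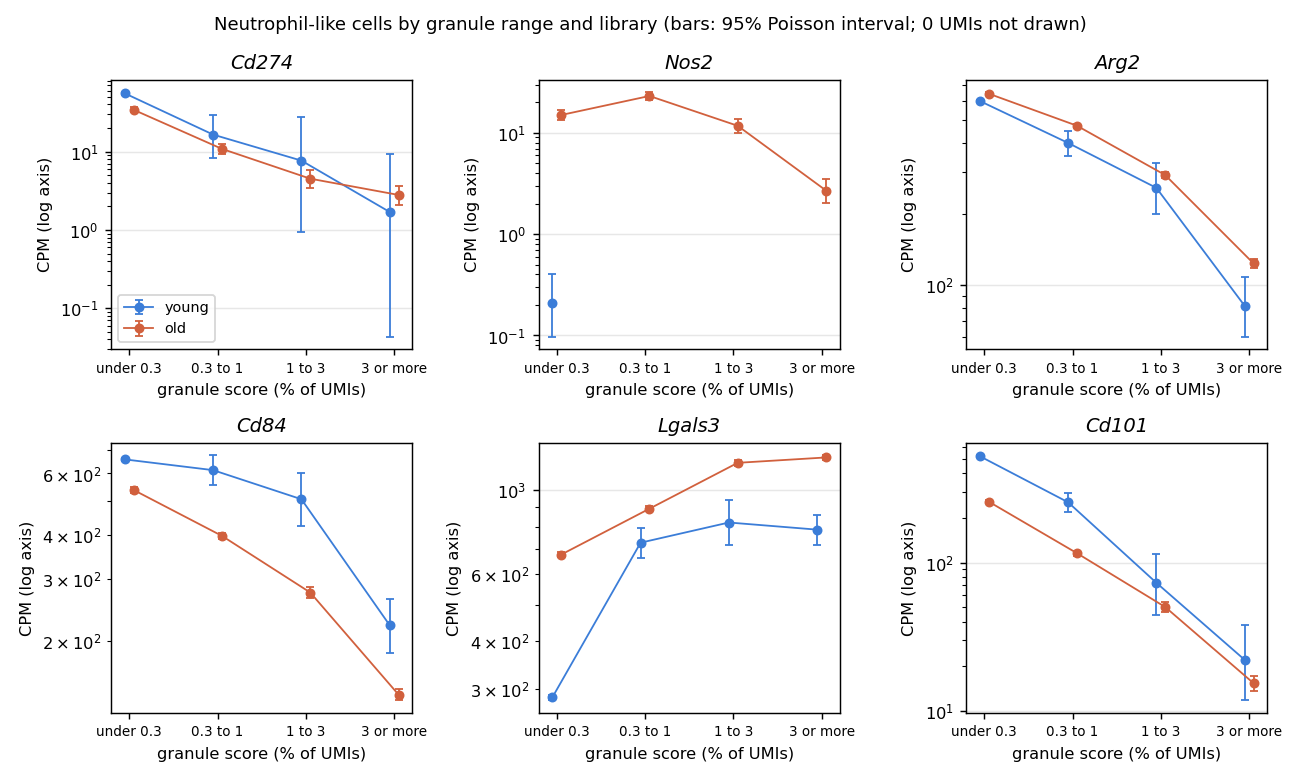
Level of 6 genes in neutrophil-like cells by granule score range (percent of a cell's UMIs), young and old library, in CPM on a log axis with 95% Poisson intervals. Cd101, Arg2, Cd84 and Cd274 are lower at the right than at the left in both libraries, while Lgals3 goes from 676 to 1219 CPM in the old one.

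Interferon-stimulated gene level was scored in the same way, as the percent of UMIs in 28 genes such as Ifit1, Isg15 and Rsad2, none of them one of the 7. Cells were split at 0.05, 0.2 and 0.8%. The 4 ranges held 1469, 4062, 3531 and 774 young cells and 1912, 4964, 1494 and 133 old cells. Of young cells 711 (7.23%) and of old cells 155 (1.82%) lay within 25% of the highest limit.

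Cd274 was higher in each successive range of both libraries. It stood at 26.1 CPM (22.3 to 30.4), 36.9 (34.2 to 39.7), 64.2 (60.3 to 68.2) and 155.5 CPM (142 to 170) in young cells, a 5.95-fold difference (4.99 to 7.13) between the ends. In old cells it stood at 7.14 CPM (5.96 to 8.49), 11.8 (10.8 to 12.8), 34.8 (31.2 to 38.6) and 173 CPM (141 to 210), a 24.2-fold difference (18.5 to 31.6). The young and old levels differed 3.66-fold in the lowest range, whereas in the highest range their intervals overlapped. After thinning to 1000 UMIs, 2.33% and 12.4% of young cells and 1.27 and 20% of old cells in the lowest and highest range had a Cd274 UMI.

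No other measured member passed 1.5-fold with the interferon score in young cells. Arg2 went from 561 to 581 CPM, a ratio of 1.03 (0.978 to 1.09) between the ends. Cd84 went from 607 to 662 CPM, a ratio of 1.09 (1.04 to 1.15). Lgals3 went from 325 to 284 CPM and Cd101 from 520 to 451 CPM, ratios of 0.874 (0.808 to 0.945) and 0.868 (0.816 to 0.923). Thus 1 of 5 measured members was higher and 0 were lower, against 12% of 7398 genes past 1.5-fold (6.04% higher and 5.95% lower). The members' median log2 ratio was 0.05, beside -0.06 over all genes measured.

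In old cells more of the genes differed. Cd101 went from 101 to 284.5 CPM, 2.82-fold higher (2.39 to 3.30) at the high end. Arg2 went from 333 to 764 CPM, 2.29-fold higher (2.08 to 2.52). Cd84 went from 283 to 503 CPM, 1.78-fold higher (1.57 to 2.00), and Lgals3 from 1011 to 633 CPM, 1.60-fold lower (1.44 to 1.77). Nos2, at 12.2 and 8.47 CPM with 5 UMIs in the highest range, had a ratio of 0.696 (0.224 to 1.65). Thus 4 of 6 measured members were higher and 1 was lower, against 48.2% of 6854 genes past 1.5-fold (35.7% higher and 12.5% lower). The median gene was itself 0.47 higher (log2), and relative to it 3 members were higher and 2 lower. Median depth was 3978 UMIs in the highest and 8125.5 in the lowest range, and its part was not tested.

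Granule content and interferon score were linked in old cells, so the interferon comparison was repeated in the cells with a granule score under 0.3%. Of the 133 old cells in the highest interferon range 117 had so low a granule score, against 789 of 1912 in the lowest. Within them Cd274 was again higher in each successive range, at 17.4, 26.5, 53.4 and 203 CPM in old and 27.5, 38.2, 64.8 and 155.5 CPM in young cells. The difference in Cd101 was small there, at 254 CPM (240 to 269) in the lowest and 327 CPM (278 to 382) in the highest old range. Arg2 stood at 594 CPM (572 to 617) and 859 CPM (778 to 946). Nos2 was lower, at 14.5 CPM (11.2 to 18.4) in the lowest and 4.19 CPM (0.508 to 15.1) in the highest old range, from 2 UMIs and with overlapping intervals. Of the 6 measured members 1 was higher (Cd274) and 1 lower (Nos2) past 1.5-fold within these old cells, an alternative chosen after the data were seen. The share of all genes past 1.5-fold in these cells is not given, so the count alone says little about the members. Cells with both a granule score of 3 or more and an interferon score of 0.8 or more were under 50 in either library and are not given.

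The order of Cd274 with interferon score was not seen in non-classical monocyte-like cells. There it stood at 125 CPM (101 to 154), 88.3 CPM (78.6 to 98.8) and 105 CPM (83.9 to 129) in the 3 lower ranges of young cells. In old cells it stood at 126 CPM (112 to 141) below 0.05% and at 75.7 CPM (66.1 to 86.2) from 0.05 to 0.2%. Arg2, which was highest in neutrophil-like cells, stood at 48.4 and 161 CPM in the same 2 ranges of old monocyte-like cells. The part of free neutrophil RNA or doublets in these values was not tested. Whether the slope differed between the 2 classes was not tested.

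**Figure D3:**
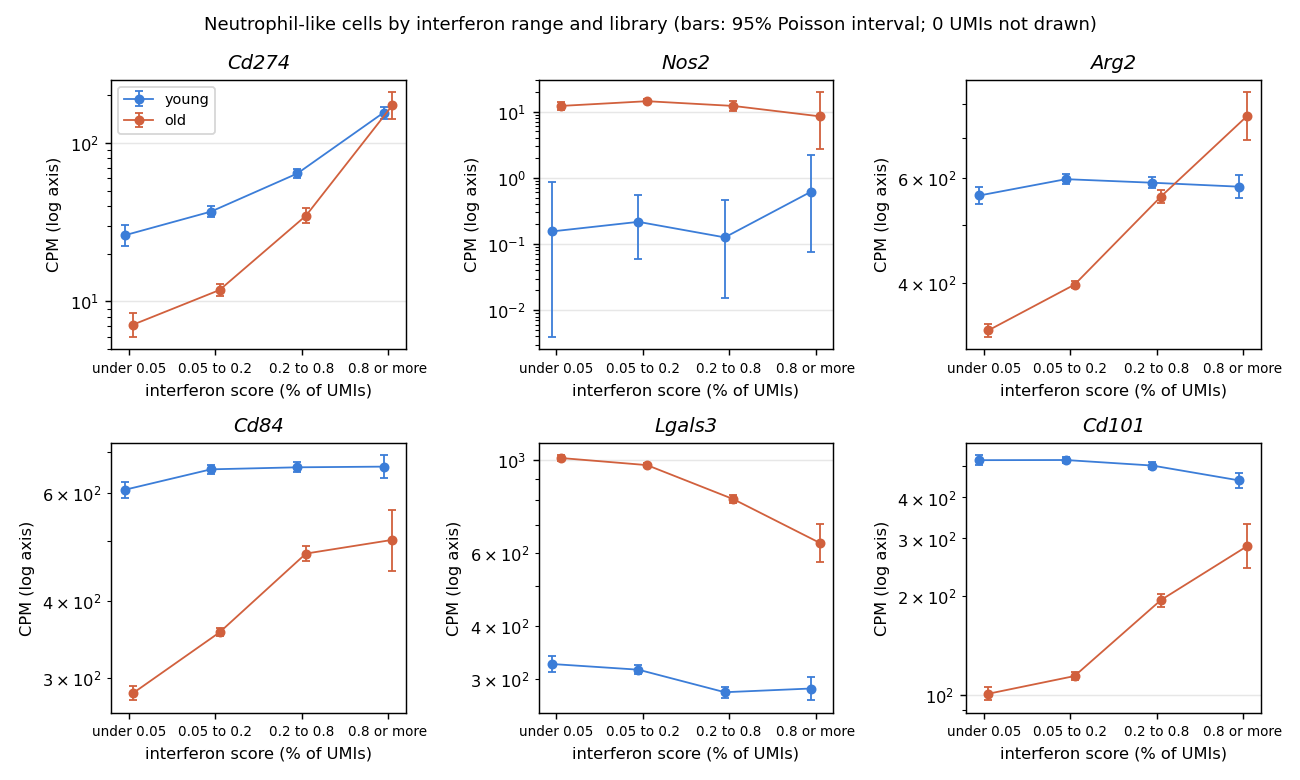
Level of 6 genes in neutrophil-like cells by interferon score range (percent of a cell's UMIs), young and old library, in CPM on a log axis with 95% Poisson intervals. Cd274 is higher in each successive range of both libraries, reaching 155.5 and 173 CPM, while Arg2, Cd84 and Cd101 differ along the score mainly in the old library.

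Between the ages, old neutrophil-like cells had less Cd101, Cd274 and Cd84 relative to all UMIs, more Nos2 and Lgals3, and Arg2 within 1.5-fold. From the levels given above, Cd101 was 4.13-fold lower (4.03 to 4.23), Cd274 3.60-fold lower (3.35 to 3.87) and Cd84 1.83-fold lower (1.80 to 1.86) in the old library. Lgals3 was 3.18-fold higher (3.12 to 3.24) and Nos2 66.2-fold higher (34.7 to 145). Of 6 measured members 2 were higher and 3 lower, against 58.7% of 7180 genes past 1.5-fold (7.59% higher and 51.1% lower), and the members' median log2 ratio of -0.70 lay near the -0.60 of all genes. The count lower is therefore near the background. In other named classes with at least 100 cells per library, Cd101 and Cd84 were also lower and Lgals3 higher in the old library. Cd101 ratios there ran from 0.282 (platelet-like) to 0.882 (T cell-like), and Lgals3 ratios from 1.29 (classical monocyte-like) to 4.23 (erythroid cell-like). The T cell-like intervals of Cd101 and Cd84 included 1. Cd274 stood at 0.455 in classical monocyte-like and 1.49 in B cell-like cells. The part of free RNA or doublets was not tested.

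The whole scale shifted between the libraries: S100a8, a calprotectin subunit, alone stood at 52352 CPM in the young and 154751 CPM in the old cells and the median gene at 50 CPM or more stood 0.69 lower (log2). Relative to that gene, Nos2 was 4.28 higher and Lgals3 2.35 higher, Cd101 1.35 lower and Cd274 1.10 lower. Cd84, at -0.18, then no longer passed 1.5-fold, and Arg2, at 0.15, changed sign, which left 2 members higher and 2 lower. Per cell, without scaling, Arg2 UMIs were 2.64 in young and 3.57 in old cells, and those of Cd84 2.92 and 3.13, at the higher depth of the old library. Summed markers of classical monocytes moved with age too, at 258 CPM in young and 732 CPM in old neutrophil-like cells with none of the 8 at 0, while summed markers of non-classical monocytes stood at 251 and 106 CPM (9 markers) and of B cells at 156 and 54.2 CPM (10 markers), again with none at 0. In Cd274, non-classical monocyte-like cells were above neutrophil-like cells in both libraries. B cell-like, T cell-like, NK cell-like and platelet-like cells were above them in the old library. In Lgals3, classical monocyte-like cells were above neutrophil-like cells in both libraries. The part of these cells in the Cd274 and Lgals3 differences was not tested.

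The age values differed by stratum. Among cells with a granule score under 0.3%, Cd274 was 1.62-fold and Cd101 2.02-fold lower in the old library, Lgals3 2.38-fold higher, Cd84 1.22-fold lower, and Arg2 at a ratio of 1.07 (1.05 to 1.10). Nos2 stood at 0.211 CPM young and 15 CPM old in them. Across the 3 lower interferon ranges Cd274 was 3.66-fold, 3.12-fold and 1.85-fold lower in the old library, and Cd101 5.15-fold, 4.55-fold and 2.57-fold lower. Lgals3 was 2.89-fold to 3.11-fold higher in each of the 3.

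Within the clusters that held at least 200 cells of each library, the direction of Cd274 was the opposite of the pooled one. In cluster 0, led by Sugct and Jaml, it stood at 36.8 CPM (34.4 to 39.3) young and 67.9 CPM (59.2 to 77.5) old, a ratio of 1.84 (1.58 to 2.14). In cluster 2, led by Chn2 and Clec4n, the ratio was 1.26 (0.953 to 1.64), and in cluster 5, led by Ifit3 and Ifit1, 1.16 (0.966 to 1.39), both with intervals that include 1. Most old cells lay in clusters with less Cd274: cluster 1, led by Wfdc17 and Prok2, with 4654 of 8503 old cells, stood at 13.2 CPM (12.04 to 14.4) and cluster 3, led by Ltf and Camp, with 2143, at 3.37 CPM (2.76 to 4.07). The 330 old cells of cluster 13, led by Cxcl2 and Acod1, stood at 65.1 CPM (52.9 to 79.3), and the 46 of cluster 14 at 26.6 CPM (12.7 to 48.9). Clusters were built on the expression of these cells, without the 7 genes among the clustering genes, but Cd101 is itself among the 10 leading genes of cluster 0, so these values are a description.

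Lgals3 and Cd101 kept the pooled direction within all 3 shared clusters. Lgals3 was at ratios of 1.54 (1.46 to 1.63), 1.75 (1.53 to 2.00) and 2.11 (1.92 to 2.31) in clusters 0, 2 and 5, and Cd101 at 0.781 (0.738 to 0.826), 0.650 (0.575 to 0.733) and 0.565 (0.499 to 0.638). Arg2 was higher in the old library in each, at 1.41 (1.35 to 1.47), 1.29 (1.18 to 1.41) and 1.26 (1.16 to 1.35). Nos2 was low in cluster 0 of both libraries, at 0.170 and 3.10 CPM, and in old cells stood at 22.0 CPM (20.5 to 23.5) in cluster 1 and 26.6 CPM (12.7 to 48.9) in the 46 cells of cluster 14. By the mean of these within-cluster ratios 2 of 5 measured members passed 1.5-fold, Lgals3 higher and Cd101 lower. The median gene stood at -0.14, -0.08 and -0.27 (log2) in clusters 0, 2 and 5. The share of all genes past 1.5-fold is not given for these ratios, so the count has no background beside it.

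**Figure D4:**
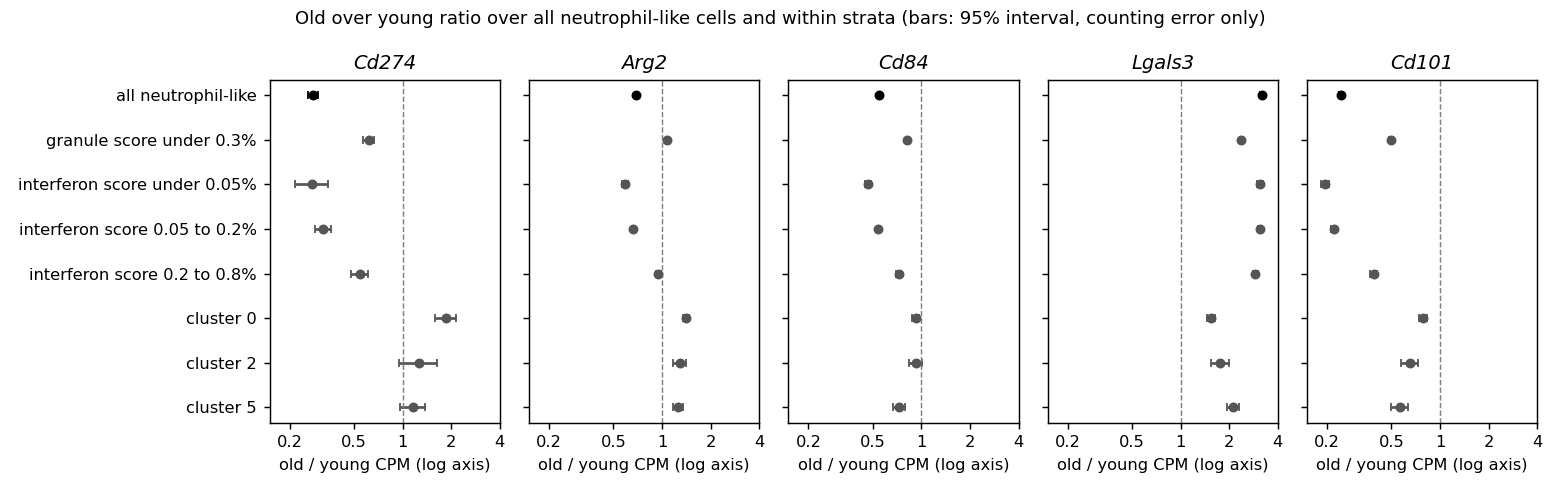
Ratio of old to young CPM of 5 genes (Nos2 and Arg1 not drawn) over all neutrophil-like cells and within granule, interferon and cluster strata, on a log axis with 95% intervals of counting error and a dashed line at 1. Cd274 lies left of the line over all cells (0.278) and right of it in cluster 0 (1.84), while Lgals3 lies right of the line in every stratum drawn.

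Members were compared for joint detection within cells after thinning each neutrophil-like cell to 1000 UMIs, which kept 9777 young and 8456 old cells. In old cells Cd274 and Cd101 were detected together in 53 cells, 1.89 times the product of their shares, and Arg2 and Cd101 in 597 cells, 1.29 times. Cd274 and Lgals3 met in 64 old cells, 0.639 times the product, and Cd274 and Nos2 in 0 cells against a product of 2.22. Old Cd274-positive cells thus held a Cd101 UMI in 27.9% of cases, against 14.5% of Cd274-negative ones. In young cells these pairs lay nearer 1, with Cd274 and Cd101 at 0.897, Cd274 and Lgals3 at 0.772 and Arg2 and Cd101 at 1.03. At this thinned depth a missing UMI does not show a missing transcript. Without thinning, Cd274 and Nos2 met in 39 old cells, against a product of 56.1.

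Other genes of the same pathways were taken from 7 lists, with the 7 genes left out. Their counts stand beside the 51.1% lower and 7.59% higher of all 7180 genes measured, and the median over those genes of -0.60. Of 8 measured genes of arginine and nitric oxide metabolism 1 was higher and 2 were lower in old neutrophil-like cells. Slc7a2, an arginine transporter, stood at 25.6 CPM young and 4.25 CPM old (6.03-fold lower) and Oat, which turns ornithine towards proline and glutamate, at 38.8 and 20.9 CPM (1.86-fold lower). Gch1, the first enzyme of the synthesis of the Nos2 cofactor tetrahydrobiopterin, stood at 20.2 and 27.5 CPM, and Sat1, a polyamine acetyltransferase, at 773 and 575 CPM, both within 1.5-fold. The list's median log2 ratio was -0.14.

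Of 11 measured checkpoint ligands and receptors 1 was higher and 5 were lower, with a median of -0.29, and the count lower is near that of all genes (51.1%). Cd80 and Icosl, ligands of CD28-family receptors, stood at 114 and 21.8 CPM young and at 40.9 and 7.27 CPM old. Ceacam1, an inhibitory adhesion receptor, stood at 32.9 CPM young and 76.9 CPM old (2.33-fold higher). Both measured SLAM family genes were lower, Cd244a from 426 to 227 CPM and Ly9 by 0.70 (log2). Of 3 measured galectins Lgals1 was higher by 0.87 (log2), Lgals8 lower (23.9 and 13.6 CPM) and Lgals9 within 1.5-fold (101 and 82.6 CPM).

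Of 12 measured soluble suppressors and their enzymes 3 were higher and 6 lower, with a median of -0.78, again near the 51.1% of all genes lower. Ptgs2, the inducible cyclooxygenase, stood at 55.2 CPM young and 11.4 CPM old, Il1rn, the interleukin-1 receptor antagonist, at 162 and 55.9 CPM, and Entpd1, the ectonucleotidase CD39, at 1000.02 and 468 CPM. Of 19 measured genes of a myeloid suppressor cell signature 8 were higher and 7 lower, with a median of 0.08. Cybb, the catalytic subunit of the phagocyte NADPH oxidase, stood at 70.1 CPM young and 527 CPM old (7.51-fold higher) and Wfdc17 at 1813 and 6401 CPM (3.53-fold higher). Of 24 measured genes upstream of Cd274, Nos2 and the arginases 0 were higher and 15 lower, with a median of -0.78, beside 7.59% and 51.1% of all genes. Among them Jak2, a kinase of cytokine receptors, stood at 174 CPM young and 62.0 CPM old, and Csf3r, the receptor of the neutrophil growth factor G-CSF, at 4729 and 1598 CPM. These lists were chosen with earlier results of these libraries known, and S100a8, Wfdc17 and the like also mark neutrophils in general.

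The genes most like each member were sought over the 16 class-by-library groups with at least 100 cells, by Pearson correlation of log2(CPM + 1) among 9182 genes. These groups share libraries and may share free RNA or doublets, and the coefficients are a description. Arg2 ran with Amer2 (0.98), Cxcr2 (0.98) and Il1r2 (0.97), and Cd101 with 4732465J04Rik (0.98), Slc40a1 (0.97) and Gm19696 (0.96), all highest in young neutrophil-like cells. Cxcr2 is the main chemokine receptor of neutrophils and Il1r2 a decoy receptor of interleukin-1. Nos2 ran with Lipg (0.91), Gpr27 (0.90) and Prok2 (0.89), which like Nos2 were highest in old neutrophil-like cells. Lgals3 ran with Adam15 (0.96), Rab7b (0.95) and Ptgr1 (0.92), and Cd84 with Tmco3 (0.91) and Ccng2 (0.90). Cd274 was least well matched, with Crebl2 at 0.82, Zhx2 at 0.80 and Ptk2b at 0.80. Between members the coefficient was highest for Arg2 and Cd101 (0.84) and was 0.26 for Cd274 and Arg2.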

How the data were processed

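Per the labels, single cells were captured with BD Rhapsody. The deposited matrices hold raw UMI counts, made with Cell Ranger 7.2.0 per the file headers. The submitters' processing notes name mm10. The annotation release, strand setting and cell calling are not given in the sources used here, nor is how the barcodes of 16 bases relate to Rhapsody labels.

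Barcodes under 200 genes or over 20% mitochondrial UMIs were dropped (678 young, 817 old). The rest were clustered jointly, with no integration, using Python 3.11.15, scanpy 1.11.5, leidenalg 0.10.2, scikit-learn 1.9.0, scipy 1.17.1, numpy 2.4.6 and pandas 2.3.3, on counts scaled to 10000 per cell, 2000 variable genes without the 7 genes, 30 components, 15 neighbours and Leiden resolution 0.6. Monocyte and lymphocyte clusters were divided again at 0.2. A cluster was named from 14 marker lists when at least 3 markers were detected (20 CPM and 25% of the highest cluster), its 10 leading genes did not go against the name and it held 20 cells. These limits, the second division and the rule on tissue genes that kept cluster 12 without a name were chosen after seeing the data. Unnamed clusters include cluster 4, with neutrophil markers but led by platelet genes (931 young and 1070 old cells). No doublet caller was run. An alternative left out the neutrophil-like cells (208 young, 2.11%, and 358 old, 4.21%) in which T, NK, B, platelet or erythroid markers made up 0.5% or more of UMIs.

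Counts were summed per class, score range and library, and given as CPM. Ratios are plain CPM ratios, while calls and log2 values use log2 of CPM plus 1. The median gene was taken at 50 CPM or more. Thinning left out 59 young and 47 old neutrophil-like cells. The interferon list named 30 genes, of which 28 were in the files. Ratios and intervals were tested on simulated Poisson counts drawn from the pooled neutrophil-like profile. These counts held no variation between cells or libraries, so that test speaks to the arithmetic and to counting error alone. The text names the 7 genes whatever their values, of each pathway list up to 4 other genes at 10 CPM or more by size of the old over young ratio, and for each member at 10 CPM or more in some class the 3 most like genes at 20 CPM or more in some class. Some genes given by this rule are left out of the text. Ly9 and Lgals1 were named after their values were seen, as were S100a8 and the leading genes of clusters. The members and lists were chosen with earlier results of these data known. Figures were drawn with matplotlib 3.10.9.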

Additional observations from a re-analysis of the deposited data

Results flagged for a closer look

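Cd101 differed in opposite directions with the interferon score in the 2 libraries. The log2 ratio of the highest over the lowest interferon range was -0.20 in young and 1.49 in old neutrophil-like cells, from 520 to 451 CPM and from 101 to 284.5 CPM. With 1 library per age this difference was not tested. Granule score moved with the interferon score in old cells, and within cells under 0.3% the log2 ratios were -0.29 young and 0.36 old.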

How the results depend on the processing

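Up to 15 alternatives per comparison changed the cell filter, clustering, doublet handling, scaling, depth, level floor, score limits or strata. Recomputed counts of members past 1.5-fold stayed within 1.5 times the main count in 68 cases and left it in 3. With score ranges set by rank, the granule count in young cells was 0 in place of 5, where the ranges are the highest and lowest 25% of cells. With the mean of ratios within shared clusters the age count was 2 in place of 5, and the log2 ratio of Cd274 was 0.47 in place of -1.78, the only reversal of a called value. In old cells with a granule score under 0.3%, an alternative added after the data were seen, the interferon count was 2 in place of 5. The share of all genes past 1.5-fold is not given for these 3 alternatives, so their counts have no background beside them. Log2 ratios of single genes left their main value more often: 287 recomputed values stayed, 105 moved and 1 reversed. The age ratio moved in 9 alternatives and stayed in 6 for Cd84, and moved in 8 and stayed in 7 for Arg2 and for Cd101. For Lgals3 it moved in 7 and stayed in 8, and for Cd274 it moved in 5, reversed in 1 and stayed in 9. For Nos2 it stayed in the 13 where it was measured. The causes were not tested. Over the alternatives the age ratio of Lgals3 (log2) lay between 0.83 and 2.35. That of Arg2, within 1.5-fold in the main result, lay between -0.75 and 0.40, above 0 relative to the median gene, at a granule score under 0.3% and within shared clusters. That of Nos2 lay between 3.43 and 4.28 where it was measured, but it was under the level floor within shared clusters, where it came to 1.81, 0.86 and 2.50 in clusters 0, 2 and 5 from 10, 1 and 7 old UMIs. No paired analysis was possible because each age has 1 library. Depth limits Arg1, and Nos2 in young cells, to a handful of UMIs, and the young cells with a granule score of 3 or more number 50.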

Other observations

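Some values stand outside the comparisons above. The unnamed cluster 4, which carries neutrophil markers and is led by platelet genes such as Nrgn and Itga2b, had member levels close to those of young neutrophil-like cells: in young cells Arg2 stood at 617.5 CPM (595 to 641), Cd84 at 631 CPM (608 to 654.5) and Cd101 at 505 CPM (484 to 526). Its old cells stood at 539 CPM (522 to 557) for Arg2, 206 CPM (195 to 217) for Cd101 and 19.0 CPM (15.9 to 22.6) for Nos2. Cluster 13, led by Cxcl2, Acod1 and Ptgs2, with 24 young and 330 old cells, held 925 CPM (877 to 974.8) of Arg2 and 1.31 CPM (0.159 to 4.75) of Nos2 in its old cells. The 17 old cells of the unnamed cluster 15, led by the basophil genes Prss34 and Mcpt8, stood at 1055 CPM (881 to 1254) for Lgals3 and 409 CPM (304 to 539) for Cd84.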
